A study of Homo sapiens with 12 samples.

Results

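The 10 genes described here are the hypoxia-inducible factor subunits HIF1A and EPAS1 and 8 targets outside glycolysis: CA9, VEGFA, ADM, NDRG1, ANKRD37, BNIP3, EGLN3 and DDIT4. They were picked by symbol from a table of 28747 genes. RNA was sequenced from DU145, a castration-resistant line of human prostate cancer. The cells carried a control hairpin (shCtrl) or the targeting hairpin labelled shSigma, and were grown attached in serum or as tumor spheres. There were 3 independent replicates in each of the 4 groups, adherent shCtrl, adherent shSigma, tumor sphere shCtrl and tumor sphere shSigma, or 12 libraries in all. Every group had been transduced with a lentiviral vector and selected with puromycin. Tumor spheres grew at low density on non-adhesive plates in serum-free medium with B-27, insulin, FGF2 and EGF, so attachment, density and medium cannot be told apart. Which targeting hairpin sequence the sequenced shSigma cells carried is not given in the sources used here. They describe no culture under reduced oxygen and give no oxygen level for any sample.

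Hypoxia-inducible factors are heterodimers of an oxygen-regulated alpha subunit, HIF-1α or HIF-2α, with the constant partner ARNT. In oxygenated cells, prolyl hydroxylases of the EGLN family mark the alpha subunit for capture by the von Hippel-Lindau protein VHL and for degradation, so that HIF activity is set largely at the protein level and not at that of the HIF1A or EPAS1 transcript. When hydroxylation fails, the dimer binds a short core motif near its targets, which include genes for secreted vascular factors, for pH control, for mitochondrial turnover, for restraint of mTOR and for EGLN3 itself. Several of these targets also answer to amino acid shortage, endoplasmic reticulum stress, growth factors or glucocorticoids.

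The core motif is shown where the stretch before the start of these genes holds it, since most of the members changed between the groups. RefSeq promoters (GRCh38.p14, 250 bases before to 50 after the start, 300 in all) were found for 8 of the 10 genes, all but VEGFA and NDRG1. The letters ACGTG were searched on both strands and stood in 4 of the 8 genes (21.4% of all 35116 promoters of that length), and GCGTG stood in 5 (36.5% of all promoters). Either form stood in 7 of 8, against 48.4% of all promoters, and EGLN3 held neither. A gene was counted if any of its promoters held the motif, whereas the shares of all promoters count each promoter. Most of these genes were also chosen as HIF targets, so the shares are given as description and were not tested. Capitals mark the motifs in the stretches below, each written 5′ to 3′ on the strand of its gene. In ANKRD37 and BNIP3 the letters CACGTG hold ACGTG on both strands.
HIF1A, chr14:61695289-61695333, plus strand: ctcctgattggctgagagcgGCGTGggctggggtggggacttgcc
EPAS1, chr2:46297270-46297314, plus strand: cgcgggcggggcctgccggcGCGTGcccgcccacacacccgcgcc
CA9, chr9:35673898-35673927, plus strand: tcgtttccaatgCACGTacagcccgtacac
ADM, chr11:10304952-10304996, plus strand: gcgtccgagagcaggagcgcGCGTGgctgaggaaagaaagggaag
ANKRD37, chr4:185396659-185396722, plus strand: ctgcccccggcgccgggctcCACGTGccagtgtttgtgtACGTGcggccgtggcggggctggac
BNIP3, chr10:131982003-131982086, minus strand: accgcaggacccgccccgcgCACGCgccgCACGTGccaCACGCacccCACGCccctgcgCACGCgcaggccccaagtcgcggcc
DDIT4, chr10:72273685-72273895, plus strand: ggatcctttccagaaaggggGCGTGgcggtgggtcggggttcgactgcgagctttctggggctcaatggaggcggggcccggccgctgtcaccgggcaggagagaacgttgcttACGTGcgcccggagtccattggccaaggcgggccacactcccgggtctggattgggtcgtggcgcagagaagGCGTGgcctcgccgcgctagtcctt
The motif of CA9 began 18 bases before the start, that of ADM 101 bases, that of EPAS1 117 bases and that of HIF1A 204 bases before it. A second RefSeq start of HIF1A held neither form. ANKRD37 held ACGTG at 3 positions and no GCGTG, whereas BNIP3 held 2 of the former and 4 of the latter. A further GCGTG of DDIT4, 25 bases after the start, is not shown.

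Libraries held 16472722 to 26957777 counts, and levels are given as CPM, the counts per 1000000 counts of the scaled library size. The epithelial keratins KRT8 and KRT18 were at 202 CPM or more in every library, while the luminal prostate marker KLK3 stayed below 0.1 CPM. EPCAM, another epithelial marker, moved with both contrasts, at 213 to 264 CPM in adherent shCtrl, 29.6 to 32.4 CPM in adherent shSigma, 578 to 662 CPM in tumor sphere shCtrl and 60.7 to 63.6 CPM in tumor sphere shSigma. Its part in the results below was not tested. Of 9 markers of other cell types, only COL1A1 passed 5 CPM, and their summed level was 4.99 to 10.5 CPM in adherent shCtrl, 5.16 to 7.47 CPM in adherent shSigma, 21.5 to 27.4 CPM in tumor sphere shCtrl and 11.3 to 15.4 CPM in tumor sphere shSigma; its part in the results below was not tested. Tumor sphere shCtrl replicate 3 stood clearly apart from the other libraries of its group for NDRG1, at 1.77 times their mean. For BNIP3, VEGFA and ADM it was at 1.25, 1.18 and 0.79 times their mean. The other tested hypoxia genes lay between 0.92 (EPAS1) and 1.03 (EGLN3). Several results are given with and without this library.

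In control cells, growth as tumor spheres came with higher transcript levels of most of the 9 genes that could be tested. HIF1A, EPAS1, VEGFA, ADM, NDRG1, ANKRD37 and EGLN3 rose, 7 of 9, where 27.4% of all 13800 genes tested were called higher. None was called lower by edgeR at an adjusted or an unadjusted p under 0.05, nor by DESeq2 (26.3% of all genes were). In shSigma cells 7 of 9 fell from adherent cells to tumor spheres (25.2% of all 13622 genes tested were called lower) and ADM alone rose (21.9% called higher). EPAS1, VEGFA, NDRG1, ANKRD37 and EGLN3 were called in opposite directions under the 2 hairpins, BNIP3 and DDIT4 were called in shSigma only, and HIF1A in shCtrl only. Of these, the rise of EGLN3 in shCtrl and the fall of ANKRD37 in shSigma were not called by DESeq2. How many of all genes were called in opposite directions is not given, so the opposite calls are description only. The median log2 fold change of the 9 genes was 0.87 in shCtrl and -0.62 in shSigma cells, beside 0.04 and 0.003 over all genes tested. In bulk RNA, a change in the share of cells that express a gene and a change in transcript per cell cannot be told apart.

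Between the hairpins, EPAS1, NDRG1, ANKRD37 and DDIT4 were called in opposite directions in the 2 cultures. The adherent calls of ANKRD37 and DDIT4 were lost with the replicate block and on leaving out some single libraries. Here too the share of all genes with opposite calls is not given. In adherent cells, 7 of 9 genes were higher with shSigma (22.3% of all 13764 genes tested) and only ADM was lower (27.7%). In tumor spheres none of the 9 was higher with shSigma (30.2% of all 13774 genes tested), by edgeR at an adjusted p under 0.05, and at an unadjusted p under 0.05 there were also none, as by DESeq2. HIF1A, EPAS1, ADM, NDRG1, ANKRD37 and DDIT4 were lower, 6 of 9 (30.9%). The comparisons share groups, so these counts are not independent of one another. Of the 4 groups, adherent shSigma cells held the highest mean of VEGFA, NDRG1, BNIP3, EGLN3 and DDIT4, and shCtrl tumor spheres that of HIF1A, EPAS1, ADM and ANKRD37.

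**Figure D1:**
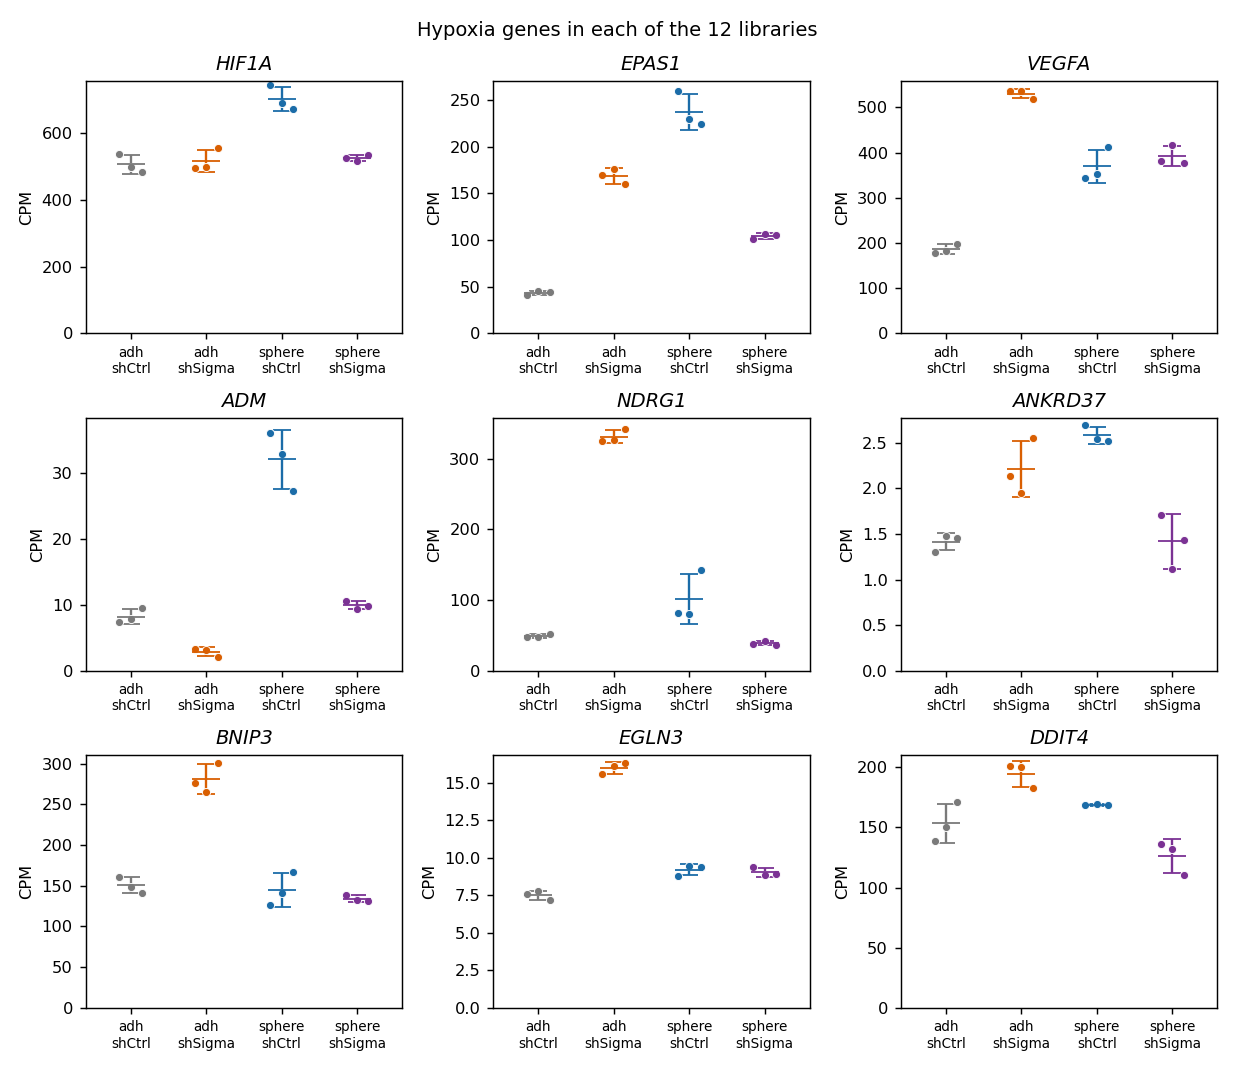
CPM (linear axes from 0) of the 9 tested hypoxia genes in each of the 12 libraries, with 1 point per library and a bar for the mean ± SD of 3 replicates. VEGFA, NDRG1, BNIP3, EGLN3 and DDIT4 peak in adherent shSigma cells, whereas HIF1A, EPAS1, ADM and ANKRD37 peak in shCtrl tumor spheres.

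HIF1A (ENSG00000100644, chr14:61695513-61748259, GRCh38) encodes HIF-1α. It was at 536, 499 and 481 CPM in replicates 1 to 3 of adherent shCtrl and at 741, 689 and 671 CPM in tumor sphere shCtrl. With shSigma it was at 494, 496 and 553 CPM in adherent cells and at 524, 515 and 533 CPM in tumor spheres. Only the shCtrl tumor spheres stood apart, above every other library. The rise in shCtrl was 0.47 ± 0.07 (log2 fold change ± SE, adjusted p = 0.00089), while in shSigma the difference was 0.05 ± 0.05 (adjusted p = 0.42). Between hairpins the adherent difference was -0.04 ± 0.07 (adjusted p = 0.68), and in tumor spheres HIF1A was lower by -0.42 ± 0.06 (adjusted p = 4.1e-05). The 40 tested genes nearest to HIF1A on the chromosome had a median of -0.31 in that last comparison, and after its subtraction HIF1A was at -0.11 (adjusted p = 0.11), so the call was lost. HIF1A-AS1 and HIF1A-AS3 overlap HIF1A on the other strand and have rows of their own. The strand setting of the counting is not given in the sources used here.

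EPAS1 (ENSG00000116016, chr2:46293667-46386697) encodes HIF-2α, the alpha subunit with the narrower tissue range. Adherent shCtrl cells held 40.7, 45.5 and 44.1 CPM and shCtrl tumor spheres 259, 229 and 224 CPM. In shSigma cells the values were 170.0, 176 and 159.6 CPM in adherent culture and 101, 107 and 106 CPM in tumor spheres. No pair of the 4 groups overlapped. EPAS1 rose 5.46-fold in shCtrl spheres (2.45 ± 0.08, adjusted p = 4.6e-07) and fell by 0.67 ± 0.07 in shSigma spheres (adjusted p = 0.00017). The shSigma hairpin went with a 3.72-fold higher level in adherent cells (1.90 ± 0.08, adjusted p = 7.1e-06) and a lower one in tumor spheres (-1.19 ± 0.06, adjusted p = 2.7e-08). Per kilobase of exon, the HIF1A level was 16.5 ± 1.82 times that of EPAS1 (SD, n = 3) in adherent shCtrl, 4.34 ± 0.49 times in adherent shSigma, 4.18 ± 0.12 times in tumor sphere shCtrl and 7.11 ± 0.26 times in tumor sphere shSigma. This ratio of levels was highest in adherent shCtrl cells and overlapped between adherent shSigma and tumor sphere shCtrl.

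**Figure D2:**
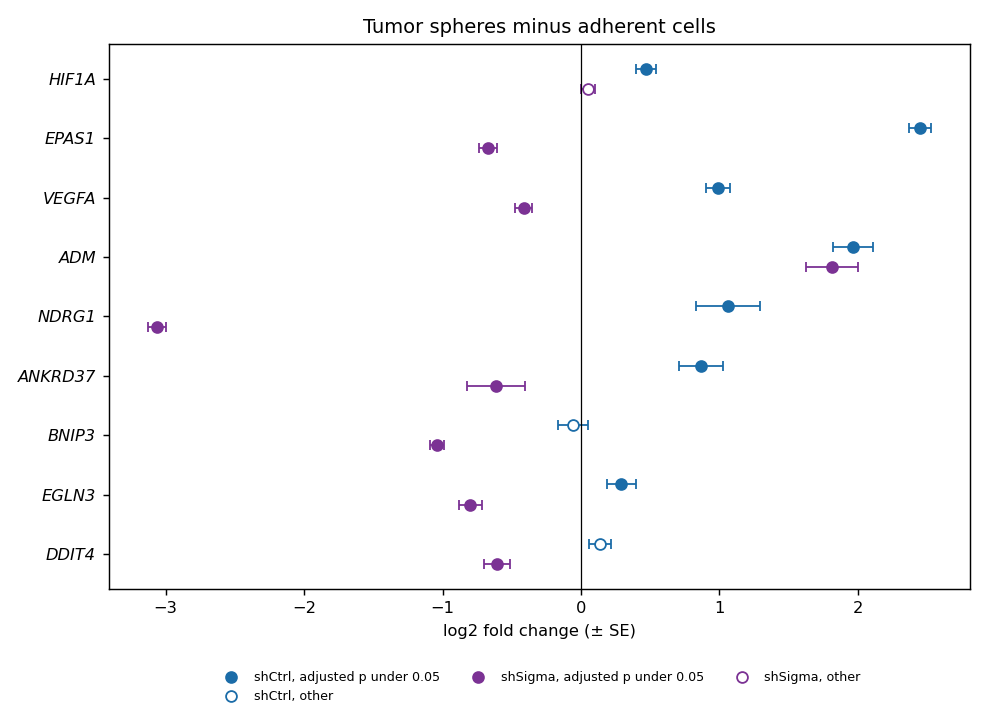
Log2 fold change (± SE, 3 against 3 libraries) of tumor spheres minus adherent cells for the 9 tested genes, in shCtrl (blue) and shSigma (purple), with filled points at an adjusted p under 0.05. Apart from ADM, every gene with a filled purple point lies left of 0 while 7 blue points are filled on the right.

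Of the secreted factors, VEGFA (ENSG00000112715, chr6:43770184-43786487) encodes the principal angiogenic growth factor. It was at 178, 182 and 199 CPM in adherent shCtrl and at 344, 353 and 412 CPM in tumor sphere shCtrl. Adherent shSigma cells held 536, 535 and 519 CPM and shSigma tumor spheres 381, 417 and 377 CPM. The 3 adherent shSigma libraries were thus above all others, and the tumor spheres of the 2 hairpins overlapped. VEGFA rose 1.98-fold in shCtrl spheres (0.99 ± 0.09, adjusted p = 4.9e-05), fell by 0.41 ± 0.06 in shSigma spheres (adjusted p = 0.0013) and was 2.73-fold higher with shSigma in adherent cells (1.45 ± 0.07, adjusted p = 8.2e-06). In tumor spheres the hairpins differed by 0.08 ± 0.07 (adjusted p = 0.37). Without tumor sphere shCtrl replicate 3 that difference was 0.17 (adjusted p = 0.046), which would count as a call.

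ADM (ENSG00000148926, chr11:10305073-10307397) encodes adrenomedullin, a vasodilator peptide. Its values were 7.33, 7.82 and 9.43 CPM in adherent shCtrl and 36.1, 32.9 and 27.2 CPM in tumor sphere shCtrl. They were 3.33, 3.17 and 2.07 CPM in adherent shSigma and 10.6, 9.32 and 9.85 CPM in tumor sphere shSigma. ADM was the 1 tested gene that rose in spheres of both kinds, 3.90-fold in shCtrl (1.96 ± 0.14, adjusted p = 2.1e-05) and 3.51-fold in shSigma (1.81 ± 0.19, adjusted p = 0.00020). It was also lower with shSigma in both cultures, by -1.57 ± 0.21 in adherent cells (adjusted p = 0.00072) and by -1.69 ± 0.11 in tumor spheres (adjusted p = 1.6e-07). The culture difference of ADM thus had the same sign under both hairpins, and the hairpin difference the same sign in both cultures. The change of the hairpin difference between cultures was -0.17 ± 0.23 (adjusted p = 0.64), which was not called and does not show that the differences were equal.

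NDRG1 (ENSG00000104419, chr8:133237175-133302022), a stress-responsive gene known as a suppressor of metastasis in prostate cancer, had the widest swing but for ADM. Adherent shCtrl cells were at 47.1, 47.0 and 51.7 CPM, and adherent shSigma cells at 325, 326 and 342 CPM. Tumor spheres were at 81.2, 80.2 and 143 CPM with shCtrl and at 37.9, 42.4 and 36.8 CPM with shSigma. No pair of groups overlapped, and shCtrl sphere replicate 3 was 1.77 times the mean of the other two. With shSigma, NDRG1 was 6.52-fold higher in adherent cells (2.70 ± 0.06, adjusted p = 6.5e-07) and lower in tumor spheres (-1.38 ± 0.21, adjusted p = 0.00034). From adherent cells to spheres it rose by 1.06 ± 0.23 in shCtrl (adjusted p = 0.0077) and fell by 3.06 ± 0.07 in shSigma cells (adjusted p = 3.2e-07). Without shCtrl sphere replicate 3 the rise was 0.69 (adjusted p = 0.00052) and the hairpin difference in spheres -1.04 (adjusted p = 2.6e-06). The 40 nearest genes had medians of -0.44 and -0.39 in the hairpin comparisons, and their subtraction left 3.14 in adherent cells and -0.99 in tumor spheres, both called.

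BNIP3 (ENSG00000176171, chr10:131967684-131981967) encodes a mitochondrial outer membrane protein of mitophagy. It was at 161, 149 and 142 CPM in adherent shCtrl, and at 126, 141 and 167 CPM in the spheres. With shSigma it was at 276, 265 and 301 CPM in adherent cells and at 139, 133 and 131 CPM in spheres. Adherent shSigma libraries were above all others, and the other 3 groups lay within 126 to 167 CPM. In shCtrl the sphere difference was -0.06 ± 0.11 (adjusted p = 0.67), whereas shSigma cells fell by 1.04 ± 0.05 (adjusted p = 5.9e-06). The hairpins differed by 0.83 ± 0.08 in adherent cells (adjusted p = 0.00013) and by -0.11 ± 0.09 in spheres (adjusted p = 0.29). The 40 nearest genes had medians of 0.49 in adherent cells and 0.47 in spheres. After their subtraction BNIP3 was at 0.35 in adherent cells (adjusted p = 0.0084) and at -0.58 in spheres (adjusted p = 0.00035), which turned the second into a call. Without shCtrl sphere replicate 3 the hairpin difference in spheres was 0.01 (adjusted p = 0.91), and without replicate 1 it was -0.20 (adjusted p = 0.035).

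ANKRD37 (ENSG00000186352, chr4:185396021-185400628), an ankyrin repeat gene used in hypoxia signatures, had few reads, 82 to 142 counts summed over the 3 libraries of a group. It was at 1.31, 1.48 and 1.46 CPM in adherent shCtrl and at 2.69, 2.54 and 2.52 CPM in tumor sphere shCtrl. With shSigma it was at 2.14, 1.95 and 2.56 CPM in adherent cells and at 1.71, 1.11 and 1.43 CPM in spheres. The groups that were compared did not overlap. ANKRD37 rose by 0.87 ± 0.16 in shCtrl spheres (adjusted p = 0.0026) and was lower with shSigma in spheres (-0.86 ± 0.20, adjusted p = 0.0028). Its fall in shSigma spheres (-0.62 ± 0.21, adjusted p = 0.042) and its rise with shSigma in adherent cells (0.58 ± 0.17, adjusted p = 0.024) were not called by DESeq2 (adjusted p = 0.23 for both). The former was also lost without adherent shSigma replicate 1 or 3 or shSigma sphere replicate 2 or 3, and the latter without any of the 6 libraries but adherent shSigma replicate 2. UFSP2 overlaps ANKRD37 on the other strand.

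EGLN3 (ENSG00000129521, chr14:33924227-34462774) encodes the prolyl hydroxylase PHD3, which acts on the alpha subunits and is itself a HIF target. Adherent shCtrl cells held 7.56, 7.78 and 7.18 CPM and shCtrl spheres 8.78, 9.44 and 9.37 CPM. Adherent shSigma cells held 15.6, 16.1 and 16.3 CPM and shSigma spheres 9.37, 8.84 and 8.90 CPM. The adherent shSigma libraries were above all others, and the spheres of the 2 hairpins overlapped. With shSigma, EGLN3 was 2.04-fold higher in adherent cells (1.03 ± 0.10, adjusted p = 0.00015) and differed by -0.03 ± 0.10 in spheres (adjusted p = 0.82). It fell by 0.80 ± 0.08 in shSigma spheres (adjusted p = 0.00022). Its rise in shCtrl spheres was 0.29 ± 0.11 (adjusted p = 0.048), a call that DESeq2 did not make (adjusted p = 0.20) and that was lost without any 1 of the 6 libraries, which leaves 6 of 9 genes called higher. The annotated EGLN3 locus holds SPTSSA on the same strand.

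DDIT4 (ENSG00000168209, chr10:72273919-72276036) encodes REDD1, which restrains mTORC1 and is also induced by ATF4. It was at 139, 150.4 and 171 CPM in adherent shCtrl and at 168, 169.9 and 168 CPM in shCtrl spheres. With shSigma it was at 201, 201 and 182 CPM in adherent cells and at 136, 132 and 110.1 CPM in spheres. In shCtrl the cultures overlapped and differed by 0.14 ± 0.08 (adjusted p = 0.18), whereas shSigma cells fell by 0.61 ± 0.10 (adjusted p = 0.0019). The hairpins differed by 0.28 ± 0.09 in adherent cells (adjusted p = 0.033) and by -0.42 ± 0.07 in spheres (adjusted p = 0.00040). The former was lost without adherent shCtrl replicate 2 or adherent shSigma replicate 1 or 2, with an adjusted p of up to 0.068. Beside it, 7 of 8 other ATF4 targets could be tested, of which PSAT1 had the highest level. With shSigma, 3 of the 7 were lower and none higher in adherent cells (27.7% and 22.3% of all genes tested), and 1 was higher and 2 were lower in spheres (30.2% and 30.9%), too few to read against those shares.

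CA9 (ENSG00000107159, chr9:35673928-35681159), the cell-surface carbonic anhydrase used as a marker of hypoxic tumors, was close to absent from the counts. It had 1 count in each of 2 shCtrl tumor sphere libraries and 0 in the other 10, under a floor of 3 counts that corresponds to at most 0.13 to 0.18 CPM in the groups. No fold was formed, and the gene was removed by the filter in all 5 fits. A low count in this table need not mean a low transcript, since ALDOA, a glycolytic enzyme abundant in most cells, had 2.69 to 11.3 CPM and SESN2 had 0 counts throughout. ARHGEF39 overlaps CA9 on the other strand.

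**Figure D3:**
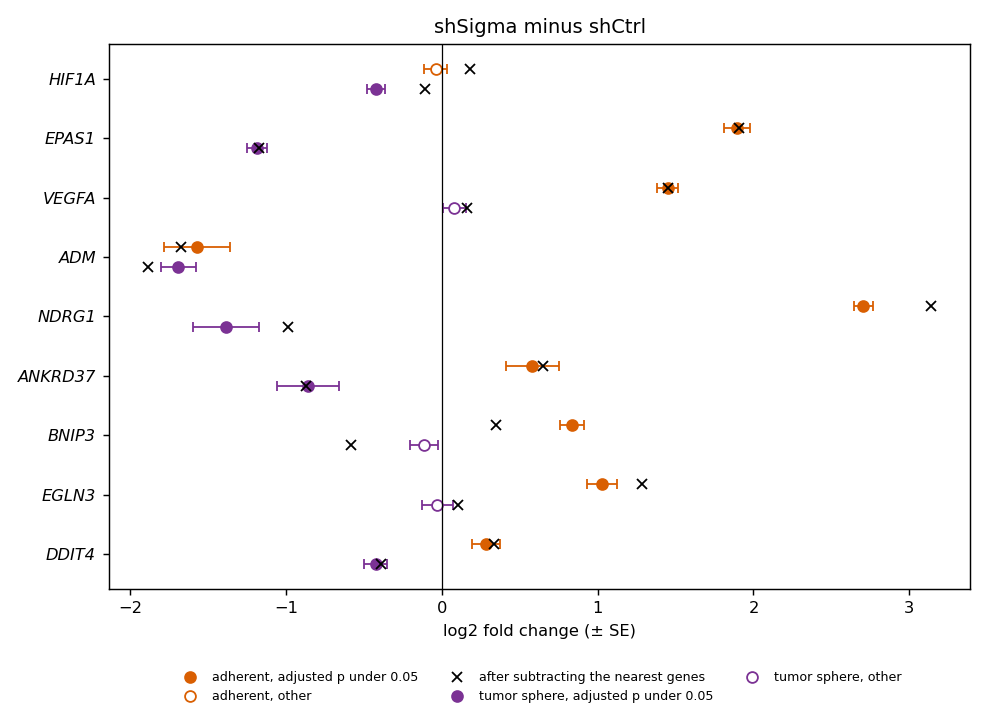
Log2 fold change (± SE, 3 against 3 libraries) of shSigma minus shCtrl for the 9 tested genes in adherent cells (orange) and tumor spheres (purple), with filled points at an adjusted p under 0.05 and crosses for the value after the median of the 40 nearest genes was subtracted. EPAS1, NDRG1, ANKRD37 and DDIT4 have filled points on opposite sides of 0 in the 2 cultures. The crosses of HIF1A, NDRG1, BNIP3, EGLN3 and, in spheres, ADM stand apart from their points.

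Whether the hairpin difference itself differed between cultures was tested by an interaction term, the hairpin difference in tumor spheres minus that in adherent cells. All but ADM of the 9 tested genes had a negative interaction that passed the test, where 15.6% of all 14175 genes did and 12.7% had a positive one. The value was -4.15 ± 0.28 for NDRG1 (adjusted p = 3.0e-06), -3.14 ± 0.10 for EPAS1 (adjusted p = 2.5e-10), -1.51 ± 0.26 for ANKRD37 (adjusted p = 0.00077) and -1.43 ± 0.11 for VEGFA (adjusted p = 5.7e-07). The remaining 4 called genes spanned -1.12 (EGLN3) to -0.44 (HIF1A). Without shCtrl sphere replicate 3 the interaction of NDRG1 was -3.79 (adjusted p = 1.6e-10), and all 8 calls were made there too. The median over the 9 genes was -1.12, beside -0.03 over all genes tested.

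Between genes, levels can be set side by side only per kilobase of exon. On that scale HIF1A stood first in each group, at 98.1 to 136 CPM per kilobase, and DDIT4 second, at 59.5 to 91.9. BNIP3 followed, at 33.1 to 69.3, and ANKRD37 last of the 9 tested, at 0.63 to 1.15 CPM per kilobase. The length used joins all annotated exons of a gene, which came to 14431 bases for VEGFA and 12002 for NDRG1. The transcripts in these cells may be shorter, so this order depends on the length chosen. An order by the length of single transcripts was not computed. Likeness of pattern was measured over the 4 groups as the root mean square difference of the mean log2 CPM, each gene centred on its own mean. BNIP3 and EGLN3 were nearest to each other (0.17), as were ANKRD37 and DDIT4 (0.26), and DDIT4 was also nearest to HIF1A (0.27). EGLN3 was nearest to VEGFA (0.31) and VEGFA to EPAS1 (0.56). The nearest pattern to NDRG1 was BNIP3 at 0.83, and ADM stood alone, with HIF1A nearest at 1.08 and NDRG1 farthest at 2.10.

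Of 16 partners and regulators of the alpha subunits 15 could be tested, and no common direction was seen in their medians. In shCtrl, 4 were higher and 4 lower in spheres than in adherent cells, near the 27.4% and 26.3% of all genes tested, with a median of 0.01. In shSigma 2 were higher and 7 lower (21.9% and 25.2% of all genes), with a median of -0.12. The dimer partner ARNT was lower in spheres of both kinds, by -0.32 ± 0.05 in shCtrl (adjusted p = 0.0017) and by -0.20 ± 0.07 in shSigma (adjusted p = 0.037). VHL was lower as well, by -0.29 ± 0.06 (adjusted p = 0.0042) and -0.29 ± 0.06 (adjusted p = 0.0044). For EGLN1, the main oxygen-sensing hydroxylase, the difference was -0.15 ± 0.06 in shCtrl (adjusted p = 0.067) and -0.25 ± 0.06 in shSigma (adjusted p = 0.0076). The highest called genes in shCtrl were ELOB (0.86), a subunit of the VHL complex, and EGLN2 (0.68), and the lowest were CUL2 (-0.73), the scaffold of that complex, and the coactivator EP300 (-0.33). The call of ELOB (adjusted p = 0.040) was lost without shCtrl sphere replicate 3 (adjusted p = 0.13). In shSigma they were EGLN2 (0.56) and the ubiquitin ligase SIAH1 (0.22), against ARNT2 (-0.96) and CITED2 (-0.53), an inhibitor that competes with HIF for its coactivators.

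With shSigma, ARNT was higher in adherent cells (0.36 ± 0.06, adjusted p = 0.0025) and in spheres (0.52 ± 0.06, adjusted p = 1.3e-05). VHL was lower in both (-0.46 ± 0.06, adjusted p = 0.00078, and -0.42 ± 0.06, adjusted p = 5.5e-05), and EGLN1 differed by -0.05 and -0.11 (adjusted p = 0.59 and 0.080). Counts over the 15 genes were 5 higher and 5 lower in adherent cells (22.3% and 27.7% of all genes tested) and 7 higher and 5 lower in spheres (30.2% and 30.9%). CITED2 was the highest in adherent cells (1.91) and CREBBP, a coactivator, the next (0.86), with ELOC (-0.61) and VHL the lowest. In spheres CREBBP (1.04) and CITED2 (0.93) led and ARNT2 (-1.48) and RBX1 (-0.59) were lowest. The interaction was called for 4 of 15 (12.7% of all genes were positive and 15.6% negative), ARNT2 (-1.60) and CITED2 (-1.04) among the 3 lower and CUL2 (0.71) the 1 higher, and for neither ARNT, VHL nor EGLN1, where it lay between -0.12 and 0.09.

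Of 40 further HIF targets outside glycolysis, 39 were tested in 4 of the 5 fits and 38 in the fit of the hairpins in spheres. In shCtrl, 13 were higher and 8 lower in spheres than in adherent cells, with a median of 0.17, near the 27.4% and 26.3% of all genes tested. In shSigma 9 were higher and 18 lower, with a median of -0.20 (21.9% and 25.2% of all genes). With shSigma 17 were higher and 7 lower in adherent cells (median 0.20, against 22.3% and 27.7% of all genes), and 10 were higher and 15 lower in spheres (median -0.16, against 30.2% and 30.9%). The interaction was negative for 19 and positive for 6, with a median of -0.43, where 15.6% and 12.7% of all genes were. The extremes ran in both directions. IGFBP3, an insulin-like growth factor binding protein, rose 19.3-fold in shCtrl spheres (4.27 ± 0.56, adjusted p = 0.00080), or 10.6-fold without replicate 3 of that group, and the chemokine receptor CXCR4 rose by 3.15. BHLHE41, a transcriptional repressor, was at -3.28 with few counts, and LOXL2, a matrix cross-linking oxidase, at -2.17. CXCR4 was also low, with 13 to 33 counts per library in adherent shCtrl.

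In shSigma spheres ANGPTL4, a secreted lipase inhibitor, and CXCR4 were the highest (2.59 and 1.88), whereas the collagen cross-linker LOX and the glycoprotein hormone STC1 fell by 3.92 and by 2.59. LOX was also the highest with shSigma in adherent cells (2.76), followed by PPFIA4 (1.64), and ANGPTL4 (-3.88) and the mitochondrial HIGD1A (-1.27) were the lowest. ANGPTL4 had only 23 to 25 counts per library in adherent shSigma. In spheres, shSigma went with lower IGFBP3 (-5.45, or -4.60 without shCtrl sphere replicate 3) and STC1 (-2.36) and with higher levels of the vasoactive peptides EDN1 (2.67) and APLN (2.03). Both peptides had few reads in shCtrl spheres, 29 to 37 counts per library for EDN1 and 10 for APLN. The interaction was lowest for IGFBP3 (-5.46, or -4.59 without that replicate) and STC1 (-3.26) and highest for BHLHE41 (2.40) and ANGPTL4 (1.79). BHLHE41 had only 0 to 4 counts per library in shCtrl spheres and 6 to 11 in shSigma spheres. It did not pass the filter for the hairpin comparison in spheres, so its interaction rests on few reads there.

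**Figure D4:**
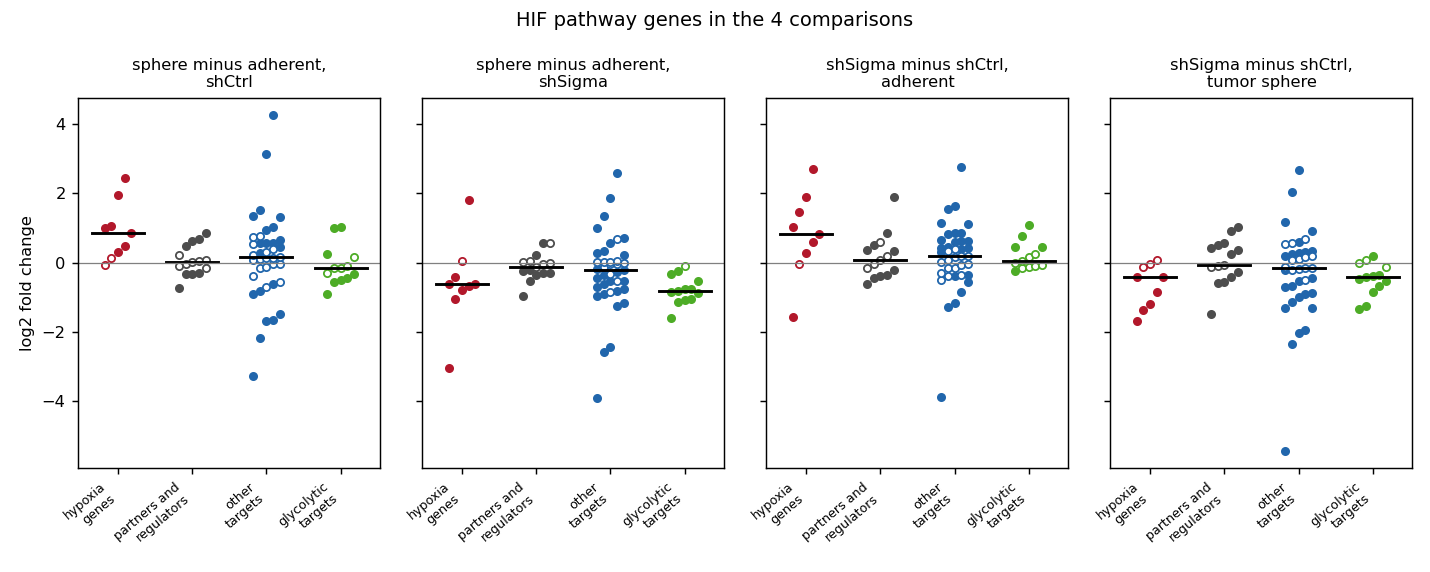
Log2 fold change of each tested gene of 4 groups, namely the 9 hypoxia genes, 15 HIF partners and regulators, 38 or 39 other HIF targets outside glycolysis and 13 glycolytic targets, in the 4 comparisons. Filled points have an adjusted p under 0.05 and the black bar is the median, which for the 9 genes lies above 0 for spheres in shCtrl and for shSigma in adherent cells, and below 0 for spheres in shSigma and for shSigma in spheres.

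The 13 glycolytic HIF targets, of which GAPDH and ENO1 had the highest levels of their list, are set beside the 9 genes. In shSigma 12 of 13 were lower in spheres, with a median of -0.82 and PDK1 the most (-1.60), and none was higher (25.2% and 21.9% of all genes tested). In shCtrl 5 were lower and 3 higher, with a median of -0.17 and ALDOA (1.04) and PFKFB4 (0.99) the highest, beside 26.3% lower and 27.4% higher of all genes. With shSigma 4 were higher and 1 lower in adherent cells (22.3% and 27.7% of all genes), and 1 was higher and 9 lower in spheres (30.2% and 30.9%). The interaction was negative for 9 of 13 and positive for none, with a median of -0.46, so a negative interaction was not particular to the 9 genes.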

How the data were processed

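Directional libraries were made by the authors from 800 ng of total RNA and sequenced from 1 end over 75 bases. Reads were aligned to GRCh38.p12 with STAR 2.6.1c, per the labels, and the authors deposited raw counts per Ensembl gene for 12 libraries, which they tested with DESeq2. The annotation release, the strand setting and how reads with more than 1 alignment were handled are not given in the sources used here. All columns of the table were used. Symbols, positions and exon lengths were taken from GENCODE v44. The exon length of a gene is the union of all its annotated exons. Counts were scaled by TMM, filtered by filterByExpr at a minimum count of 10, and fitted with the robust quasi-likelihood test of edgeR 4.0.16 (R 4.3.3), each comparison on its own 6 libraries and the interaction on all 12. Tests were two-sided and p-values were adjusted by Benjamini-Hochberg across the whole table of tested genes. An adjusted p under 0.05 counted as a call. Log2 fold changes are given with their SE. Alternatives were DESeq2 1.42.0 and its size factors, 2 other filters, 1 fit of all 12 libraries, a fold threshold, a replicate block and each library left out. Subtraction of the median of the 40 nearest genes was a further alternative, run only for the hairpin comparisons within each culture. It kept the SE of the main fit, so its adjusted p leaves out the error of the median. What lies behind a shared shift of neighbouring genes was not tested. The steps were tested on simulated data. The floor of 3 counts covers counting error only. Named were all 10 genes, ARNT, EGLN1 and VHL, and per comparison the 2 highest and 2 lowest called genes of each of the regulator list and the list of other targets. The check of the gene targeted by the hairpin is not reported here. The genes and lists were chosen with earlier results of these data known. Labels give groups and replicate numbers, and samples with the same number did not deviate together in every pair (correlations of -0.73 to 0.29), so the main fits have no block. Between the hairpins in adherent cells, replicates 3 and 1 deviated in opposite ways (-0.73 and -0.46). Replicates also differed most in adherent cells. The mean chi-square per gene between 2 replicates reached 43.9 in adherent shCtrl and 32.8 in adherent shSigma. It reached 13.0 in tumor sphere shCtrl and 6.57 in tumor sphere shSigma.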

Additional observations from a re-analysis of the deposited data

Results flagged for a closer look

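For 8 genes the hairpin difference in tumor spheres was tested to differ from that in adherent cells, as the interaction of hairpin and culture. The log2 value was -4.15 for NDRG1, -3.14 for EPAS1, -1.51 for ANKRD37, -1.43 for VEGFA, -1.12 for EGLN3, -1.01 for BNIP3, -0.76 for DDIT4 and -0.44 for HIF1A, with adjusted p between 2.5e-10 (EPAS1) and 0.0034 (HIF1A) by edgeR. For EPAS1, NDRG1, ANKRD37 and DDIT4, shSigma libraries were above shCtrl in adherent culture and below it in spheres, without overlap. The share of all genes with this pattern is not given, so it is description only. Groups of 3 libraries are too small for a check of single outlying libraries, and the distance of tumor sphere shCtrl replicate 3 in NDRG1 is given as a value only.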

How the results depend on the processing

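Of 45 log2 fold changes of the 9 tested genes, 648 alternative values were computed. Of these, 592 kept their direction and side of the threshold, 45 lost the call, 3 gained it and 8 changed sign, the last only where nothing had been called. All 8 called interactions were called under every alternative run on them except the fold threshold, which NDRG1, EPAS1, ANKRD37, VEGFA, EGLN3 and BNIP3 passed. Subtraction of the nearest genes was not run on the interaction, so its dependence on the neighbourhood was not tested. With an absolute log2 fold change over 1, fewer genes count by construction. Then 3 of the 9 genes were higher in shCtrl spheres, 2 were lower in shSigma spheres, 4 were higher with shSigma in adherent cells and 3 were lower with it in spheres. In the same order, the partners and regulators called came to 0, 0, 1 and 2, with 2 for the interaction, and the other targets to 11, 8, 8 and 10, with 15. For this threshold the share of all genes tested is not given, so these counts are description only. The adherent hairpin difference of HIF1A became 0.026 in 1 fit of all 12 libraries and 0.18 after subtraction of the nearest genes, and ranged from -0.095 to 0.067 on leaving out each library. For EGLN3 in spheres that subtraction gave 0.10. On leaving out each library, BNIP3 in spheres ranged from -0.20 to 0.0097, and the count of genes higher with shSigma in spheres from 0 to 1. With the replicate block, 6 genes were called higher in shCtrl spheres (EGLN3 lost) and 5 were higher with shSigma in adherent cells (ANKRD37 and DDIT4 lost), and no other call of the 9 genes changed. Same-numbered libraries share only a number, as far as the labels say. ADM and ANKRD37 rest on the fewest reads of the genes tested, with 175 and 82 counts in the group where each was lowest. The causes of lost calls were not tested.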
